A study of Abies pinsapo with 12 samples.

Results

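Class III homeodomain-leucine zipper (HD-ZIP III), B3 and basic helix-loop-helix (bHLH) transcription factors (TFs) were followed in the needles of Spanish fir (Abies pinsapo) through 3 assembled transcripts of the 76481 in the deposited count table. These were ap_89825, whose best database hit is a class III HD-ZIP protein of the conifer Keteleeria evelyniana, ap_31855, which carries a B3 domain, and ap_8789, which carries a bHLH domain. All 3 were chosen because the study lists them among the TF transcripts that differ between needles of bluish and green trees. The difference between the colours was therefore used in choosing them and is given below as a description, without a test. RNA was sequenced from needles of adult trees of the field population, 6 with bluish and 6 with green needles, with 1 library per tree, and the needles were harvested in spring at one site. The colours are natural variants, no treatment is stated, and differences in genotype between the individual trees are not given in the labels.

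HD-ZIP III proteins are plant TFs that combine a homeodomain and a leucine zipper with a lipid-binding START domain. In Arabidopsis they specify the upper side of the leaf and pattern the shoot meristem and the vascular tissue, and the microRNAs miR165 and miR166 cleave their transcripts. B3 is a DNA-binding domain of plants that several families share, among them the auxin response factors and seed maturation regulators such as ABI3. bHLH proteins bind E-box motifs as dimers and form one of the largest plant TF families, with members in light signalling, stomatal development, epidermal cell fate and anthocyanin synthesis. The sources used here do not place ap_31855 or ap_8789 in a subfamily, and no sequence of the 3 transcripts was used.

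The libraries held between 66111176 and 79064155 counts in bluish trees, against 64978939 to 91973481 counts in green trees. Levels are given in CPM, the counts of a transcript per 1000000 counts of its library after edgeR's TMM scaling. After a filter of at least 2 CPM in at least 2 libraries, 23352 transcripts were tested, all 3 TF transcripts among them (3 of 3). A count of 0 allowed up to 6 counts (3 read pairs), a limit of 0.0695 to 0.0908 CPM across libraries that covers counting error only. The labelled tissue was not checked against needle markers, because the annotation used here covers only part of the transcripts. In these bulk samples, fewer cells that express a transcript and less of it per cell cannot be told apart. Reads shared with near-identical members of the same families could have been split between assembled transcripts, and this was not tested.

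The HD-ZIP III transcript ap_89825 had a lower mean in bluish than in green needles and was detected in every tree. Bluish trees 1 to 6 had 0.466, 0.428, 1.20, 2.25, 1.59 and 1.40 CPM. Green trees 1 to 6 had 1.26, 1.37, 3.64, 1.44, 3.95 and 5.77 CPM. The level was lowest in bluish trees 1 and 2 and highest in green trees 3, 5 and 6, while green trees 1, 2 and 4 lay within the range of the bluish trees. The mean was 1.22 ± 0.696 CPM in bluish trees, against 2.90 ± 1.84 CPM in green trees (SD, n = 6 each), and the fitted log2 fold change of bluish over green trees (logFC) was −1.25 (SE 0.496). None of the bluish trees exceeded the green median of 2.54 CPM (0 of 6), and 5 of 6 green trees exceeded the bluish median of 1.30 CPM. The logFC stayed between −1.51 and −0.93 when each library was left out in turn.

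The B3 transcript ap_31855 showed the opposite direction, with a higher mean in bluish trees that was carried by few trees. In bluish trees 1 to 6 the level was 0.496, 2.83, 0.289, 0.724, 0.0496 and 2.42 CPM. In green trees 1 to 6 it was 1.74, 0.0463, 0.220, 0.316, 0.117 and 0.136 CPM. Bluish trees 2 and 6 and green tree 1 stood above all other trees. The ranges of the colours overlapped up to the level of green tree 1, and bluish trees 2 and 6 lay above every green tree. Bluish tree 5 and green tree 2 had 4 counts each, which is under the limit that a count of 0 allows. The mean was 1.13 ± 1.18 CPM in bluish trees, against 0.429 ± 0.648 CPM in green trees (SD, n = 6 each), with a logFC of 1.40 (SE 0.973). ap_31855 reached 2 CPM in bluish trees 2 and 6 alone, so it passed the filter only through the colour in which it was higher. The logFC was 2.75 without green tree 1 and, with no filter on low counts, 0.89 without bluish tree 2 and 1.04 without bluish tree 6.

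The bHLH transcript ap_8789 followed the same trees. Its level was 0.631, 3.94, 0.260, 0.634, 0.149 and 3.02 CPM in bluish trees 1 to 6. The level in green trees 1 to 6 was 2.50, 0.139, 0, 0.194, 0.0703 and 0 CPM. Green trees 3 and 6, without a single count of ap_8789, were 2 of the 3 trees with the most HD-ZIP III transcript, and green tree 5, the third of these, had 6 counts. The mean of ap_8789 was 1.44 ± 1.62 CPM in bluish trees, against 0.484 ± 0.990 CPM in green trees (SD, n = 6 each), with a logFC of 1.57 (SE 1.25). Green tree 1 gave 86.1% of the summed CPM of ap_8789 in green trees, and bluish tree 2 gave 45.6% of that in bluish trees. The median was 0.632 CPM in bluish trees, against 0.105 CPM in green trees, and all 6 bluish trees were above this green median. At least 2 CPM of ap_8789 was reached in bluish trees 2 and 6 and green tree 1. The logFC was 4.10 without green tree 1 and 0.95 without bluish tree 2.

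**Figure D1:**
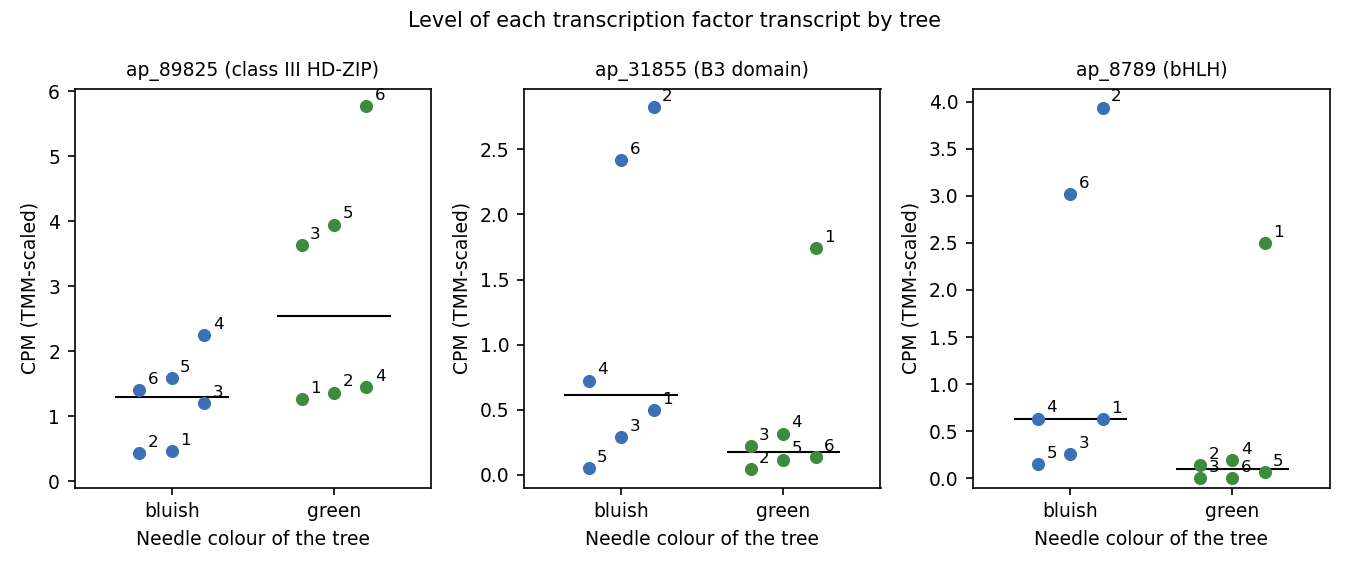
Level of the HD-ZIP III, B3 and bHLH transcripts in each tree, in TMM-scaled CPM on a linear axis, with bluish trees left and green trees right. Points are trees with their number, and lines are medians of 6 trees (HD-ZIP III 1.30 CPM in bluish and 2.54 CPM in green trees). The B3 and bHLH transcripts are high in bluish trees 2 and 6 and green tree 1.

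Across the whole table, edgeR's quasi-likelihood test called 1 of 23352 transcripts (0.00428%) at FDR under 0.05 and |logFC| over 1, and 1478 had an unadjusted p under 0.05. It called 0 of the 3 TF transcripts, of which 1 had an unadjusted p under 0.05. The exact test of edgeR with one common dispersion called 453 transcripts (1.94%) and 3 of the 3 TF transcripts. A transcript-wise dispersion, the likelihood ratio test and DESeq2 called none of the 3. Since the 3 transcripts were chosen on this contrast, these calls are a description of the choice.

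The spread between trees of one colour was wide in all 3 transcripts. The biological coefficient of variation that edgeR fitted for each transcript was 0.589 for HD-ZIP III, 1.07 for B3 and 1.45 for bHLH, against a median of 0.207 over all transcripts tested. These values lay above those of 94.5%, 98.5% and 99.3% of the transcripts tested. The SD of log2 CPM within a colour was 0.95 for HD-ZIP III, 1.77 for B3 and 2.14 for bHLH, against a median of 0.26 over all transcripts tested. All 3 are low in CPM, and the SD of log2 CPM includes counting error. The medians are over transcripts of all levels, and no comparison with transcripts of a like level was made.

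Covariation was measured after subtracting the mean of each colour from log2 CPM, so that the colour difference used in choosing the transcripts does not enter. Pearson's r was tested by permuting the trees within each colour (518400 arrangements, two-sided), and p was adjusted over 12 pairs, which were the 3 pairs of TF transcripts and the 9 pairs of each with a MADS-box transcript. All values of a pair come from the same libraries. The B3 and bHLH transcripts varied together, with r = 0.81 over 12 trees (exact permutation p = 0.00239, adjusted p = 0.0246) and Spearman's rho = 0.73 (exact permutation p = 0.0154, adjusted p = 0.0924). In bluish trees alone r was 0.97 (n = 6, exact permutation p = 0.00139, adjusted p = 0.0167), and the order of the 6 trees was the same for both transcripts. In green trees alone r was 0.71 (n = 6, exact permutation p = 0.131, adjusted p = 0.522). Without bluish trees 2 and 6, the trees farthest from the median of B3, r was 0.71 (exact permutation p = 0.0350, adjusted p = 0.210), and the adjusted call was lost. With only one of these trees left out it held, at an adjusted p of 0.0497 without bluish tree 2 and 0.0444 without bluish tree 6 (exact permutation). It was lost without green tree 1 (r = 0.71, adjusted p = 0.162 by exact permutation), bluish tree 4 (r = 0.81, adjusted p = 0.0639) or bluish tree 5 (r = 0.79, adjusted p = 0.0704). Over the 20 alternatives r stayed between 0.68 and 0.99, and the adjusted p was between 0.00194 and 0.522 and was under 0.05 in 13. That both transcripts peak in the same trees was already known when these transcripts were chosen, and both passed the filter through bluish trees 2 and 6 (bHLH also through green tree 1), so the test is not independent of that choice.

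The counts of B3 and bHLH were also compared tree by tree. The ratio of bHLH counts to B3 counts was 1.39 in bluish tree 2 (294 and 211 counts), 1.25 in bluish tree 6 (211 and 169 counts) and 1.44 in green tree 1 (194 and 135 counts). It was 1.27 in bluish tree 1 (42 and 33 counts), 0.88 in bluish tree 4 (42 and 48 counts), 0.90 in bluish tree 3 (18 and 20 counts) and 0.62 in green tree 4 (16 and 26 counts). The ratio was 3.00 in bluish tree 5 and in green tree 2 (12 and 4 counts each) and 0.60 in green tree 5 (6 and 10 counts), and green trees 3 and 6 had 0 counts of bHLH beside 16 and 9 of B3. The ratio is not corrected for transcript length and says nothing about which transcript was more abundant.

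The correlation of HD-ZIP III with bHLH was negative and did not pass the adjusted threshold. Here r was −0.64 over 12 trees (exact permutation p = 0.0331, adjusted p = 0.0993) and rho was −0.60 (exact permutation p = 0.0553, adjusted p = 0.166). Within the colours, r was −0.42 in bluish trees (n = 6, exact permutation p = 0.394, adjusted p = 0.823) and −0.81 in green trees (n = 6, exact permutation p = 0.0306, adjusted p = 0.367). Without green tree 6 and bluish tree 2, the trees farthest from the median of HD-ZIP III, r was −0.46 (exact permutation p = 0.224, adjusted p = 0.472). Without bluish tree 6 it was −0.73 and passed (adjusted p = 0.0444 by exact permutation). Over the 20 alternatives, which reuse the same trees, the adjusted p was between 0.0208 and 0.823, and r was negative in all of them. The 0.0208 belongs to r without colour centring, which holds the opposite colour differences used in choosing these transcripts. Green trees 3, 5 and 6 had 0, 6 and 0 counts of bHLH, so their log2 CPM depends on the prior count. On linear CPM r was −0.37 (exact permutation, adjusted p = 0.397). For HD-ZIP III and B3, r was −0.37 (exact permutation p = 0.268, adjusted p = 0.489) and rho was −0.37 (exact permutation p = 0.274, adjusted p = 0.628). It was −0.35 in bluish trees, −0.38 in green trees and −0.17 without green tree 6 and bluish tree 2, and none of the 20 alternatives passed (adjusted p between 0.247 and 0.823).

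**Figure D2:**
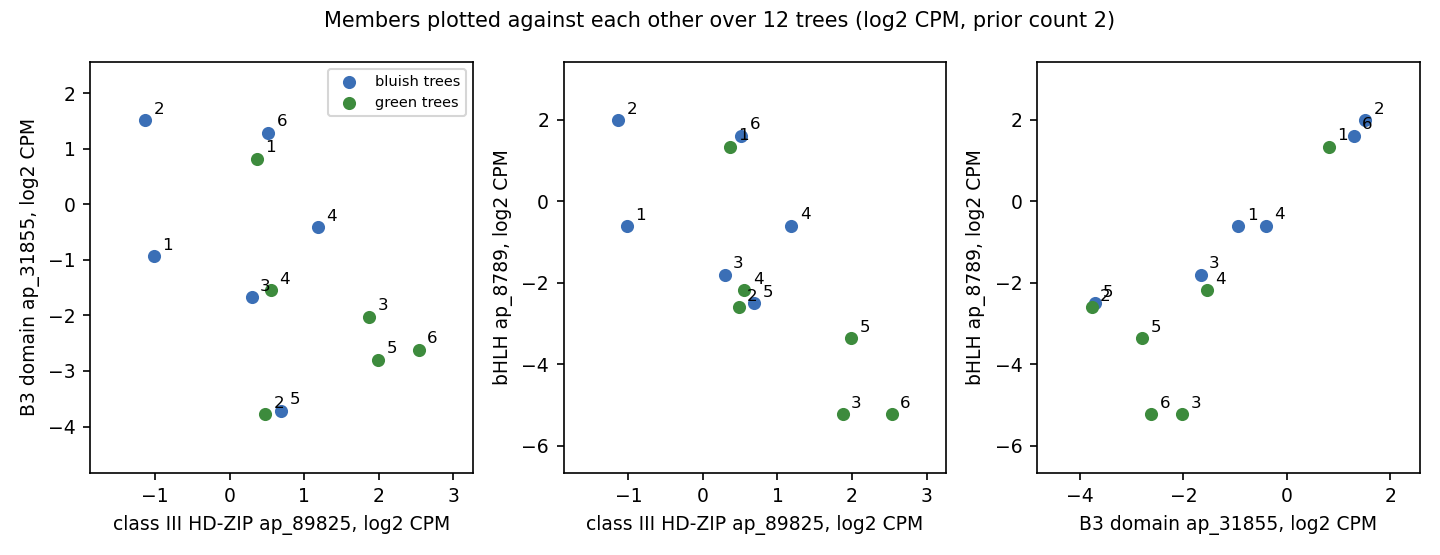
The 3 pairs of TF transcripts over 12 trees, in log2 CPM with a prior count of 2, with bluish trees in blue, green trees in green and tree numbers beside the points. The right panel shows B3 against bHLH (colour-centred r = 0.81), with bluish trees 2 and 6 and green tree 1 at the upper end and green trees 3 and 6 low in bHLH.

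MADS-box TFs, best known for flowering time and organ identity, are the other TF transcripts that the study sets beside these 3, and 1 of their 9 pairs with them passed. For the Agamous-like transcript ap_16931 and B3, r was 0.78 (exact permutation p = 0.00410, adjusted p = 0.0246) and rho was 0.88 (exact permutation p = 0.000926, adjusted p = 0.0111). Its highest levels were 2.45 CPM in bluish tree 6 and 2.12 CPM in bluish tree 2 and, among green trees, 0.953 CPM in green tree 1, which are the trees with the most B3 transcript in each colour. Both transcripts reached 2 CPM in bluish trees 2 and 6 alone and passed the filter through these same trees, so the filter favoured a positive r and the p is no independent support. ap_16931 had 0 counts in bluish trees 3 and 5 and in green trees 2, 3 and 5. Without bluish trees 2 and 6 the r with B3 was 0.70 (exact permutation p = 0.0201, adjusted p = 0.210). The call was also lost without bluish tree 4 or 5 or green tree 1, 2 or 5, each of which left 0 of 9 pairs. With bHLH, ap_16931 had r = 0.62 (exact permutation p = 0.0320, adjusted p = 0.0993) and rho = 0.69 (exact permutation p = 0.0231, adjusted p = 0.0924). DAL19 (ap_10727) and SOC1 (ap_71580), both lower on average in bluish trees as HD-ZIP III was, had r = −0.10 and −0.33 with HD-ZIP III (exact permutation p = 0.754 and 0.332).

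Among all transcripts tested, those with the most alike profile over the 12 trees were sought for each of the 3, by Pearson's r of log2 CPM, as a description. This r includes the colour difference, and all profiles share the same libraries. At r of 0.9 or more there were 4 transcripts for HD-ZIP III, 12 for B3 and 32 for bHLH, against a median of 1 over all transcripts tested. With the colour means removed there were 4, 12 and 38, against a median of 3, and 55.4%, 88.5% and 98.0% of the transcripts tested had fewer. bHLH stood at place 44 in the list of B3, and B3 at place 92 in the list of bHLH. The 5 transcripts most alike B3 (r between 0.95 and 0.96) and the 5 most alike bHLH (r between 0.95 and 0.98) all had their highest levels in bluish tree 2, bluish tree 6 and green tree 1. These 3 trees held the top places for 363 of the transcripts tested (1.55%), a count made after the pattern had been seen. All of the closest transcripts of B3 and bHLH except ap_71274 reached 2 CPM in these trees alone. They passed the filter through the same trees as B3 and bHLH, so the filter favoured a high r.

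The closest profile to bHLH was that of ap_4764 (r = 0.98), whose best hit is proliferating cell nuclear antigen (PCNA) of Picea sitchensis, the sliding clamp of DNA replication. Its level was 3.96 CPM in bluish tree 2, 2.92 CPM in bluish tree 6 and, among green trees, 4.24 CPM in tree 1, and lay between 0.0908 and 1.11 CPM in the other trees. The other 4 transcripts close to bHLH (ap_4707, ap_83, ap_5641 and ap_10484) were not in the part of the annotation used.

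Of the 5 transcripts closest to B3, 3 had a described best hit. ap_81020 (r = 0.96) matched a putative fatty aldehyde decarbonylase of the CER1 type from Nymphaea odorata, and CER1 is required for wax alkanes in Arabidopsis. The level of ap_81020 was 2.54 CPM in bluish tree 2, 2.13 CPM in bluish tree 6 and, among green trees, 2.96 CPM in tree 1, with a maximum of 0.287 CPM elsewhere. ap_81141 (r = 0.96) matched a 3-ketoacyl-CoA synthase, the class of enzyme that elongates fatty acids to very long chains. It had 2.18 CPM in bluish tree 2, 1.53 CPM in bluish tree 6 and, among green trees, 2.15 CPM in tree 1, with a maximum of 0.241 CPM elsewhere. ap_43280 matched an acanthoscurrin-1-like protein. The remaining 2 were ap_68802, which has no hit, and ap_71274, which was not in the part of the annotation used.

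The 5 transcripts closest to HD-ZIP III had r between 0.88 and 0.95. ap_88974 (r = 0.95), which matched an undescribed transcript of the conifer Wollemia nobilis, had its lowest levels in bluish tree 2 (4.74 CPM) and bluish tree 1 (5.80 CPM) and its highest in green tree 5 (16.2 CPM) and green tree 6 (17.1 CPM). ap_369 (r = 0.88) matched a detoxification-like protein, a family of membrane transporters, and ran from its lowest level, 5.95 CPM in bluish tree 1, to its highest, 16.6 CPM in green tree 5. ap_13063 (r = 0.92), ap_13776 (r = 0.91) and ap_34396 (r = 0.90) had no description in the annotation used.

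**Figure D3:**
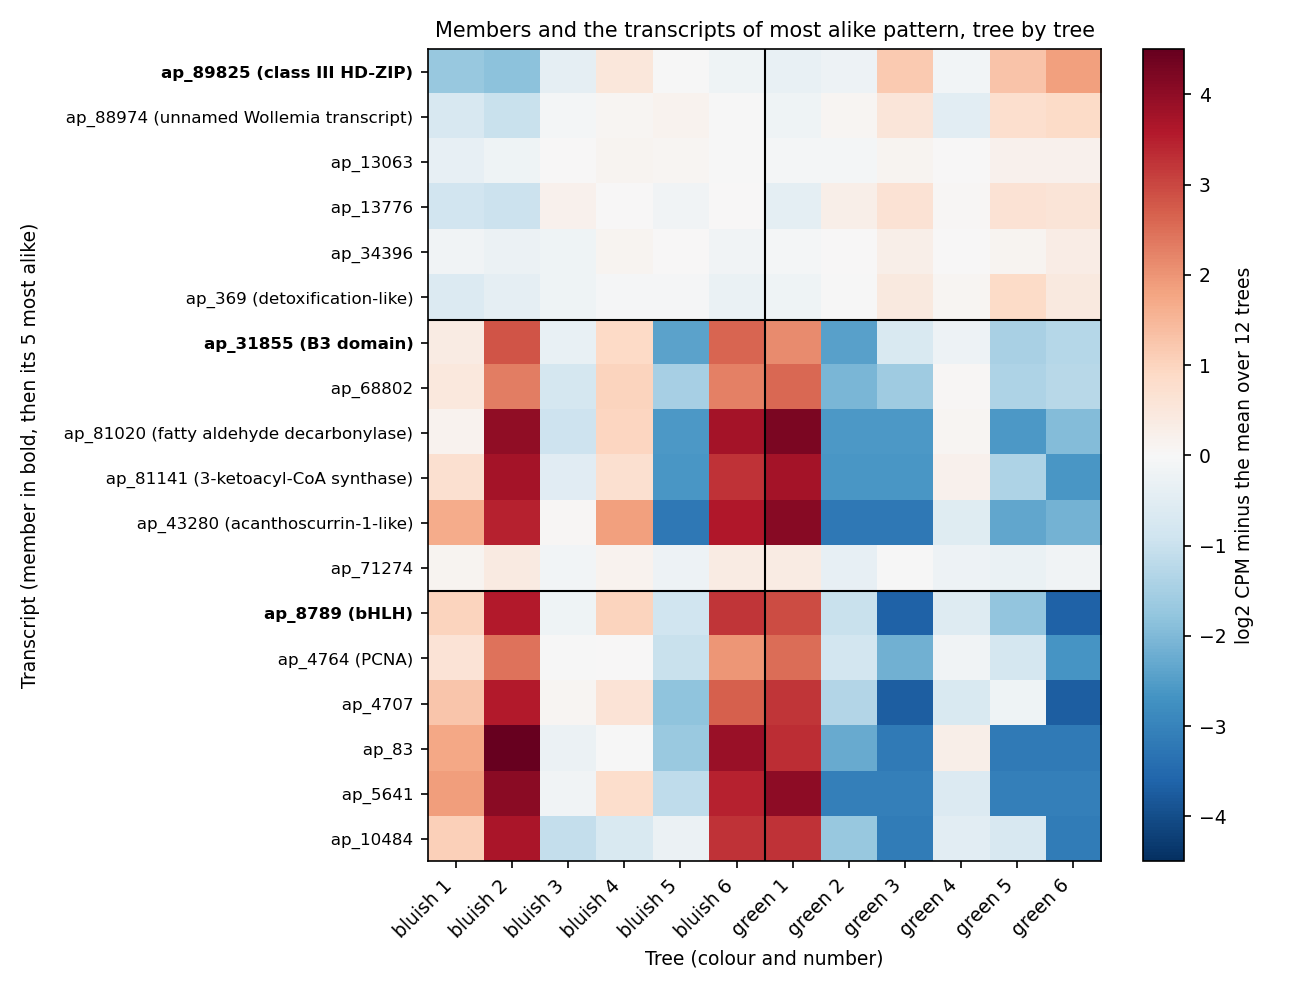
Level of each TF transcript (bold) and of the 5 transcripts with the most alike profile, as log2 CPM minus the transcript's mean over 12 trees (colour scale, red above and blue below the mean), with bluish trees left of the line and green trees right. The B3 and bHLH blocks are red in bluish trees 2 and 6 and green tree 1, and the HD-ZIP III block is paler, with its lowest values in bluish trees 1 and 2.

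Other TF transcripts that the study names or lists were set beside the 3, again with the colour means removed and without a test. These lists were made from transcripts selected on these data, and for their colour difference in part. Of 19 other TF transcripts, 4 had r over 0.5 with B3, where 8.67% of all transcripts tested did. They were FLORICAULA/LEAFY-like ap_8745 (r = 0.65), a family that directs reproductive development, the YABBY transcripts ap_3315 (r = 0.64) and ap_5842 (r = 0.57), a family that promotes blade growth and lower-side identity in Arabidopsis leaves, and MYB6 ap_18902 (r = 0.56). With bHLH, ap_8745 (r = 0.76) and ap_18902 (r = 0.70) were over 0.5, and a trihelix transcript, ap_7010, was below −0.5 (r = −0.53), where 10.3% of all transcripts tested were over 0.5 and 10.3% below −0.5. HD-ZIP III had 1 of 19 over 0.5, R2R3-MYB25 ap_58314 (r = 0.55), where 7.19% of all transcripts tested were. The counts for bHLH and HD-ZIP III are near or under these shares. ap_18902 reached 2 CPM in bluish tree 2 and green tree 1 alone, and ap_58314 in green trees 3 and 5 alone. These are high trees of the TF transcripts they go with, so the filter favoured a high r. The median r of the 19 was −0.07 with HD-ZIP III, −0.10 with B3 and −0.03 with bHLH, close to 0 as over all transcripts tested (−0.02, 0.01 and 0.03).

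Further transcripts of the B3 and bHLH families were in this list and had other profiles. The B3 transcript ap_88280 averaged 77.2 ± 22.0 CPM in bluish trees, against 122 ± 39.7 CPM in green trees, and its r with ap_31855 was −0.36. The bHLH transcript ap_12411 averaged 24.5 ± 8.88 CPM in bluish trees, against 16.1 ± 2.24 CPM in green trees, and bHLH-3 ap_91019 averaged 5.20 ± 1.31 CPM in bluish trees, against 3.64 ± 0.862 CPM in green trees (SD, n = 6 each). Their r with ap_8789 was −0.38 and 0.05. The size of the logFC was between 0.47 and 0.92 in all 19, so none could pass the threshold of 1 whatever its p. By edgeR's quasi-likelihood test 10 of the 19 had an unadjusted p under 0.05, where 1478 of the 23352 transcripts tested did. These 19 were chosen in part for their colour difference, so that count is a description of the choice. In logFC, 13 were higher and 6 lower in bluish trees. Since the list holds no logFC near 0, its median of 0.51 cannot be compared with the 0.00 over all transcripts tested.

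Of 7 cell wall transcripts, expansin ap_2687, whose protein loosens growing walls, had the closest profile to bHLH (r = 0.95) and to B3 (r = 0.79), and the most opposite to HD-ZIP III (r = −0.68). Its level was 6.25 CPM in bluish tree 2, 3.13 CPM in bluish tree 6 and, among green trees, 3.12 CPM in tree 1, and lay between 0.192 and 1.35 CPM in the other trees. A xyloglucan endotransglucosylase, ap_2740, was the other wall transcript over 0.5, with r = 0.72 to B3 and 0.77 to bHLH. Both ap_2687 and ap_2740 reached 2 CPM only among bluish trees 2 and 6 and green tree 1. They passed the filter through these trees, as B3 and bHLH did, so the filter favoured a high r. The median r of the 7 was 0.15 with B3, 0.30 with bHLH and −0.24 with HD-ZIP III, and the 2 transcripts below −0.5 with bHLH were cellulose synthase ap_88208 (r = −0.51) and ap_7630 (r = −0.51), which is annotated to cell wall metabolism. Of 9 other transcripts that the study lists under DNA binding or regulation of transcription, chromomethylase ap_5633, an enzyme class that methylates DNA at CHG sites, had the highest r with both B3 (0.88) and bHLH (0.89). The median r of the 9 was −0.10 with B3, −0.17 with bHLH and 0.27 with HD-ZIP III, and the most negative were ap_18286 with B3 (r = −0.55) and ap_87687 with bHLH (r = −0.64). ap_5633 had 7.28 CPM in bluish tree 2, 4.59 CPM in bluish tree 6 and, among green trees, 4.25 CPM in tree 1, and between 0.192 and 1.52 CPM in the others. It too passed the filter through these high trees alone, which favoured a high r. All 7 wall transcripts and all 9 DNA-binding transcripts had a higher mean in bluish trees, the direction by which the study listed them. edgeR's quasi-likelihood test called 0 of 7, with 1 at an unadjusted p under 0.05, and 0 of 9, with 2 at an unadjusted p under 0.05. With one common dispersion, the exact test called 6 of 7 and 9 of 9, where it called 1.94% of all transcripts tested. The transcript-wise exact test, the likelihood ratio test and DESeq2 called 0 of both lists. Since the study listed both sets from this same contrast, these calls and p-values are a description of the choice.

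**Figure D4:**
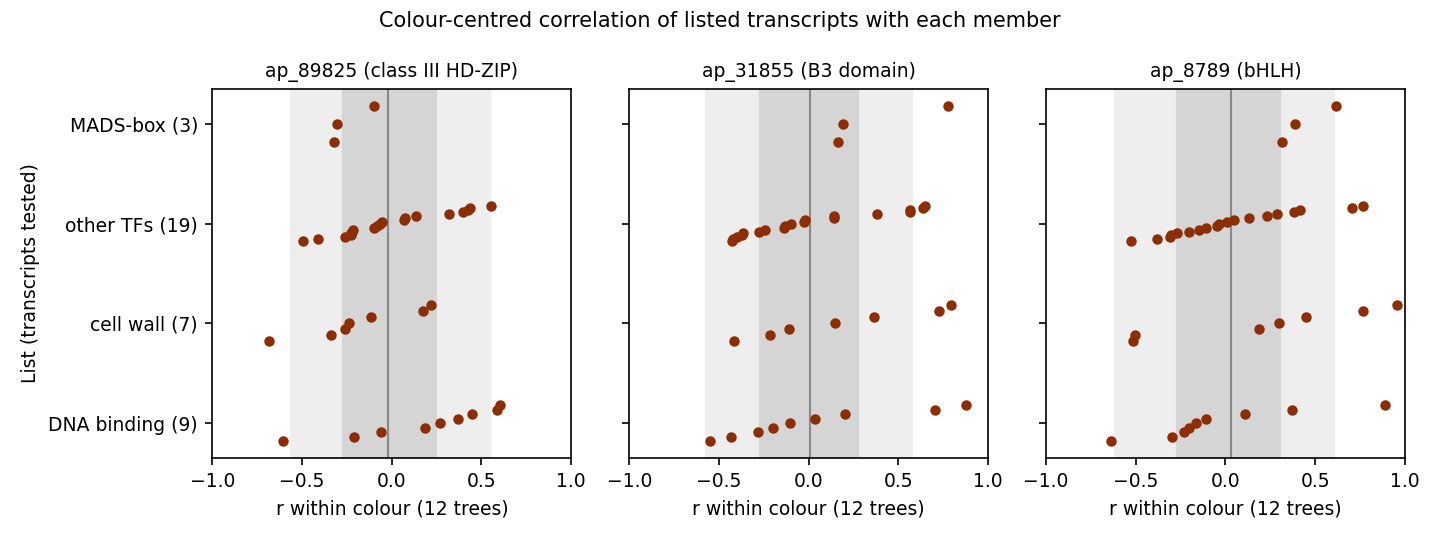
Colour-centred r of each listed transcript with HD-ZIP III, B3 and bHLH over 12 trees. Points are transcripts, dark grey spans the middle 50% and light grey the middle 90% of all transcripts tested, and the line is their median. Expansin (0.95) and chromomethylase (0.89) are the rightmost wall and DNA-binding points for bHLH.

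Transcripts with best hits in green algae, Carpinus or Anthurium were summed beside the 3 transcripts, as possible RNA of other organisms. A best hit outside conifers does not show that the RNA is foreign, and the origin of these transcripts was not tested. The summed level of 15 transcripts with green algal hits was between 30.9 and 92.8 CPM in bluish trees, against 36.6 to 363 CPM in green trees. It was 32.8 CPM in bluish tree 2, 35.1 CPM in bluish tree 6 and, among green trees, 72.2 CPM in tree 1. For 47 transcripts with Carpinus hits the sum was between 34.2 and 98.5 CPM in bluish trees and between 47.2 and 449 CPM in green trees. For 16 transcripts with Anthurium hits it was between 8.86 CPM (tree 2) and 52.9 CPM (tree 6) in bluish trees and between 17.0 CPM (tree 1) and 135 CPM (tree 5) in green trees. The Anthurium sum had a colour-centred r of 0.51 with HD-ZIP III, −0.55 with B3 and −0.43 with bHLH. In the same order, r was −0.24, −0.28 and 0.02 for the algal sum and −0.21, −0.28 and 0.05 for the Carpinus sum. With HD-ZIP III these 2 sums had the other sign than the Anthurium sum, and with bHLH their r was near 0. With B3 the r of every sum was negative. Whether RNA of other organisms entered the levels was not tested. All 15, 47 and 16 transcripts were among those tested, and the lists were taken from transcripts that the study lists as higher in green trees. The total count per library had r of −0.45 with HD-ZIP III, −0.25 with B3 and 0.26 with bHLH.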

How the data were processed

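Needles of 6 bluish and 6 green trees were analysed, 1 library per tree, with colours taken from the labels. The extraction protocol in the labels describes roots of pine seedlings, whereas the tissue label and the methods of the paper describe needles, which were taken as the tissue. The authors trimmed paired reads, assembled them with Trinity, mapped them with BWA MEM and tallied them with sam2counts, and the deposited table holds these raw counts per transcript. Of the counts from 1 to 29, 76.0% were even, so a read pair was taken as 2 counts. Between libraries of the same colour, the chi-square of the counts divided by its degrees of freedom was 33.6 to 91.7, and all 12 were treated as separate.

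The filter (at least 2 CPM in at least 2 libraries), TMM factors (0.947 to 1.04), dispersions and quasi-likelihood test came from edgeR 4.0.16 (limma 3.58.1, R 4.3.3), in a model of colour alone with Benjamini-Hochberg adjustment over 23352 transcripts. DESeq2 1.42.0 was an alternative. CPM values were TMM-scaled, and log2 CPM had a prior count of 2. SEs were obtained as |logFC| over the root of F. The paper calls the trees independent, but whether they are genetically related is not stated. The p-values treat each tree as an independent replicate and hold for these trees. Exact permutation tests used numpy 2.4.6 and scipy 1.17.1 in Python 3.11.15, and figures matplotlib 3.10.9. The tests were tried on simulated data.

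The 3 transcripts and all lists were chosen with earlier results of these data known. Transcripts named beside them were the 5 most alike each of the 3, and listed transcripts with the largest colour-centred r in size. The B3 and bHLH transcripts of the list, a count of top trees and transcripts that make up small counts were named after their values were seen. Best-hit descriptions came from a shortened table ordered by the study's results, so no set test was run. The authors' fold changes and p-values were not used. Sequences, RT-qPCR and physiology were not analysed here.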

Additional observations from a re-analysis of the deposited data

Results flagged for a closer look

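Green tree 1 stood far from the other green trees in the B3 and the bHLH transcripts. Its level of ap_31855 was 1.74 CPM, against at most 0.316 CPM in the other 5 green trees, and the gap took up 84.1% of the range of the green trees. Its level of ap_8789 was 2.50 CPM, against at most 0.194 CPM in the other green trees, with a gap of 92.2% of the range. On this linear scale both exceed the 62.5% that marks 1 sample of 6 as far from the rest. That limit marks about 1 in 20 groups of normally distributed values. These levels are skewed (SD 151% and 205% of the green mean), so that rate need not hold. On log2 CPM green tree 1 had 0.82 for B3, against −1.55 in the next green tree and −3.78 in the lowest. For bHLH it had 1.34, against −2.18 and −5.23. There the gap is a smaller part of the range, so the marks hold for linear CPM only. Both marks come from the same tree. In the same tree PCNA-like ap_4764 was at 4.24 CPM, expansin ap_2687 at 3.12 CPM, chromomethylase ap_5633 at 4.25 CPM and LEAFY-like ap_8745 at 6.62 CPM. These were named for a high r with B3 or bHLH, so high levels in this tree follow from that choice. None of the 3 TF transcripts was marked in bluish trees, and HD-ZIP III was marked in neither colour. Why this tree differs was not tested.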

How the results depend on the processing

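The count of transcripts called between bluish and green trees, 1 by the quasi-likelihood test, was 453 with the exact test and a common dispersion, 13 with transcript-wise dispersions, 15 with the likelihood ratio test, 22 with DESeq2, 3 with filterByExpr and 1 to 2 when 1 library was left out. With the tree number as a replicate block it was 0, with a logFC of −1.26 for HD-ZIP III, 1.26 for B3 and 2.87 for bHLH. Same-numbered trees of both colours did not deviate together (r between −0.14 and 0.11, and 1 of 6 numbers was best matched to its own), so the numbers do not pair the trees. No alternative turned the direction of a logFC. Since the 3 transcripts were chosen on this contrast and the alternatives reuse the same trees, this is a description of the choice. The logFC lay between −1.51 and −0.93 for HD-ZIP III, between 0.89 and 2.75 for B3 and between 0.95 and 4.10 for bHLH, the last without green tree 1. Without bluish tree 2 or 6, B3 fell under the filter, and its values without these trees come from fits with no filter that were added after seeing the data.

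For B3 and bHLH, r lay between 0.71 and 0.88 when 1 library was left out. The adjusted p by permutation was over 0.05 with Spearman's rho (0.73, adjusted p = 0.0924), a prior count of 0.5 (0.68, adjusted p = 0.0730), green trees alone (0.71, adjusted p = 0.522) and without the 2 farthest trees (0.71, adjusted p = 0.210). For HD-ZIP III and bHLH, r was −0.75 without colour centring (permutation, adjusted p = 0.0208) and between −0.73 and −0.56 with 1 library left out. The uncentred r holds the opposite colour differences on which these transcripts were chosen, so its p is no independent support. On linear CPM r was weakest, at −0.37 (exact permutation, adjusted p = 0.397). For HD-ZIP III and B3, r was between −0.53 and −0.22 with 1 library left out. Of the 9 pairs with MADS-box transcripts, 2 passed on linear CPM, 0 with a prior count of 0.5, and 0 to 2 with 1 library left out. The causes were not tested. Depth limits the lowest B3 and bHLH values, since 1 bluish and 1 green tree for B3, and 3 green trees for bHLH, held no more than the 6 counts that a count of 0 allows.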
